A study of Mus musculus with 27 samples.

Results

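The regions described here are 2146 Nkx2.2 binding sites of MIN6 cells, a mouse insulinoma line used as a beta-cell model, that the authors had joined to a gene expressed in adult islets. They were taken from a final set of 6473 sites called by chromatin immunoprecipitation sequencing (ChIP-seq) in 2 replicates. The members were chosen by the measured ChIP signal and by the authors' join: a site was kept when it was listed beside a gene in the authors' deposited table of Nkx2.2-bound genes and when its mean signal over both replicates lay below the 90th percentile of the final set, a ceiling of 8.06 log2 CPM (read counts scaled to the library total). The members made up 33.2% of the final sites and were joined to 2181 genes. Another 412 joined sites lay at or above the ceiling and 3915 final sites were not joined to a gene. Both groups serve below as points of reference.

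Expression of the joined genes was read in isolated islets. At 8 weeks of age there were 2 libraries of control islets and 3 of betaSDmut islets, in which the SD domain of Nkx2.2 is mutated in beta cells only. At 4 weeks there were 2 control libraries and 2 libraries labelled betaKO, a name the labels do not explain further. The labels name neither the promoter that drives Cre, nor the alleles that the controls carry, nor whether animals were pooled. Islets hold alpha, delta and PP cells beside beta cells, so that a lower level in these bulk samples cannot be split into fewer cells of a type and less RNA per cell. Nothing in the labels states that the libraries of a group came from separate animals, so the p-values below measure the spread between these libraries.

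Nkx2.2 is a homeodomain transcription factor of the NK2 class that beta cells need to form and to keep their identity. It can activate genes, and it can repress them together with corepressors of the Groucho/TLE family. NK2 homeodomains read a short core that ends in T or in C (CACTT or CACTC, or AAGTG and GAGTG on the other strand). Other factors of endocrine cells read other letters. RFX factors bind an X-box, which is an inverted repeat of GTTGCC-like half-sites, basic helix-loop-helix factors such as Neurod1 bind E-boxes such as CAGATG, and forkhead factors such as Foxa2 bind TGTTTAC.

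The sequences below show what the member sites held. They are 101 bases of the GRCm38 plus strand, 50 on each side of the event position, and were chosen because each lies at a gene whose islet level is described further down. Capitals mark matches, on either strand, to the NK2 core CACTC, the RFX half-sites GTTGCC and GTTGCT, the E-box CAGATG or the forkhead site TGTTTAC. The first 5 hold an RFX half-site close to the event position, and in Fhdc1 a pair of them faces each other with 3 bases between GTTGC and GCAAC. Egfr and Arg1 carry several CACTC cores, Slc2a2 and Fam134b an E-box, and the Rbp4 site none of the 5.
Fhdc1 (chr3:84418131-84418231, downstream of the gene): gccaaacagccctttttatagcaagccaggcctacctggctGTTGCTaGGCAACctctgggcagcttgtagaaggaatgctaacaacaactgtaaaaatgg
Kcnj13 (chr1:87393865-87393965, in an intron of the gene): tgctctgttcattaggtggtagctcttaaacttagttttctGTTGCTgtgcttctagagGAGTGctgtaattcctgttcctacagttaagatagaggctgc
Pde6c (chr19:38172370-38172470, in an intron of the gene): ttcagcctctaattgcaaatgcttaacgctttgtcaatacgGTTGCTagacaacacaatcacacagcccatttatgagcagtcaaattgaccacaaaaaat
Npy (chr6:49904215-49904315, downstream of the gene): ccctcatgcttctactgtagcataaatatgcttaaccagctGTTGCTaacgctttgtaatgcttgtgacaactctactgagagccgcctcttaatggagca
Th (chr7:142903116-142903216, in an intron of the gene): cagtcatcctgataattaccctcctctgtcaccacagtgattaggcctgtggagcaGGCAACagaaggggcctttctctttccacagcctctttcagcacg
Egfr (chr11:16708109-16708209, upstream of the gene): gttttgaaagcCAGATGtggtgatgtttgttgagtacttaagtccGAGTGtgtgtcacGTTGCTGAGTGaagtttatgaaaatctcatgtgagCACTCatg
Arg1 (chr10:24958857-24958957, upstream of the gene): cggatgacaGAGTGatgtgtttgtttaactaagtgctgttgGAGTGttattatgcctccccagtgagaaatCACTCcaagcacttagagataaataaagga
Vgf (chr5:137024398-137024498, upstream of the gene): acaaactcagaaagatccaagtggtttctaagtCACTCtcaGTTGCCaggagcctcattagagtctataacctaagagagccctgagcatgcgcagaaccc
Slc2a2 (chr3:28682019-28682119, upstream of the gene): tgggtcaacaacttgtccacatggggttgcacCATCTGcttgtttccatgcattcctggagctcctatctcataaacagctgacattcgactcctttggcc
Fam134b (chr15:25814683-25814783, upstream of the gene): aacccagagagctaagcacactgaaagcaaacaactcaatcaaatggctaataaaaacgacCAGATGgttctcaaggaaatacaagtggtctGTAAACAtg
Rbp4 (chr19:38112763-38112863, downstream of the gene): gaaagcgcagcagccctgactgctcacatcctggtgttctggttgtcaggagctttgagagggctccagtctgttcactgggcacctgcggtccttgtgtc

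Over all member sites the core ending in C stood out and the core ending in T did not. CACTC occurred within 100 bp of the event position in 58.6% of the member sites and in 34.4% of equally long windows placed 5000 bp to either side. CACTT occurred in 41.5% and 39.9%. The final sites that were not joined showed the same contrast: CACTC occurred in 53.6% of them and 32.3% of their windows, CACTT in 40.7% and 39.1%. It is therefore not particular to the member sites. CACTC read backwards (CTCAC), a control for base composition, occurred in 40.6% of the sites and 41.3% of the windows. The letters of the T form in another order (CATCT, which is also part of the E-box CAGATG on the other strand) occurred in 51.8% and 44.8%, a larger excess than that of CACTT itself. Among RefSeq promoter windows of the same length in the same build, 34.9% held CACTC and 34.3% held CACTT. The median GC content was 47.8% at member sites and 44.8% in the windows beside them. The core CACTC, the half-site GTTGCT and the E-boxes CAGATG and CAGCTG were added to the search after all 6-base words had been ranked by their excess at these sites, so their shares describe the sites and are no test.

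RFX half-sites and E-boxes were also more frequent at the member sites than beside them. GTTGCC occurred in 20.9% of the sites against 5.94% of the windows and 8.08% of RefSeq promoters, and GTTGCT in 24.1% against 10.6% and 9.66%. The E-box CAGATG was found in 31.3% against 15.1% and 12.0%, whereas its letters in reverse order (GTAGAC) were found in 3.68% against 7.97%. The reversed letters of the RFX half-site (CCGTTG), by contrast, were also more frequent at the sites, at 3.59% against 1.16%. The longer E-box CAGATGG, the form read by Neurod1, occurred in 15.8% against 4.66%. The forkhead site TGTTTAC occurred in 7.18% against 2.35%, and its letters reversed (CATTTGT) in 4.80% against 3.94%. At least 1 of the core CACTC, the half-site GTTGCC, the E-box CAGATG and the forkhead site was present in 82.7% of the member sites and 49.2% of the windows. GTTGCC within 100 bp was more common at the joined sites above the ceiling, at 36.4%, than at the members. The sites that were not joined were close to the members, with GTTGCC in 20.1%, GTTGCT in 24.5% and CAGATG in 32.4%. The forkhead site occurred in 7.77% of them, and at least 1 of the same 4 motifs in 78.2%.

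The 2 kinds of motif were placed differently around the event. Within 20 bp of the event position CACTC occurred in 27.3% of the member sites against 8.29% of the windows, and its matches spread over that stretch: the most common single offset held 4.64% of the plus-strand matches. GTTGCC occurred within 20 bp in 17.5% against 1.23%, and GTTGCT in 17.8% against 2.24%. Of 211 plus-strand GTTGCC matches in this stretch, 167 (79.1%) had base 4 of the match exactly 6 bp before the event position, and of 194 plus-strand GTTGCT matches 166 (85.6%) did. On the minus strand 80.9% and 75.9% of the matches shared the offset of 9 bp after it. The plus-strand offset is the one seen in the Fhdc1, Kcnj13, Npy, Pde6c and Vgf sites, and the minus-strand offset the one seen in the Th site. GEM, the program that called the events, places events with the help of motifs that it discovers, so the position of a motif is not independent of the caller and its part in this alignment was not tested.

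**Figure D1:**
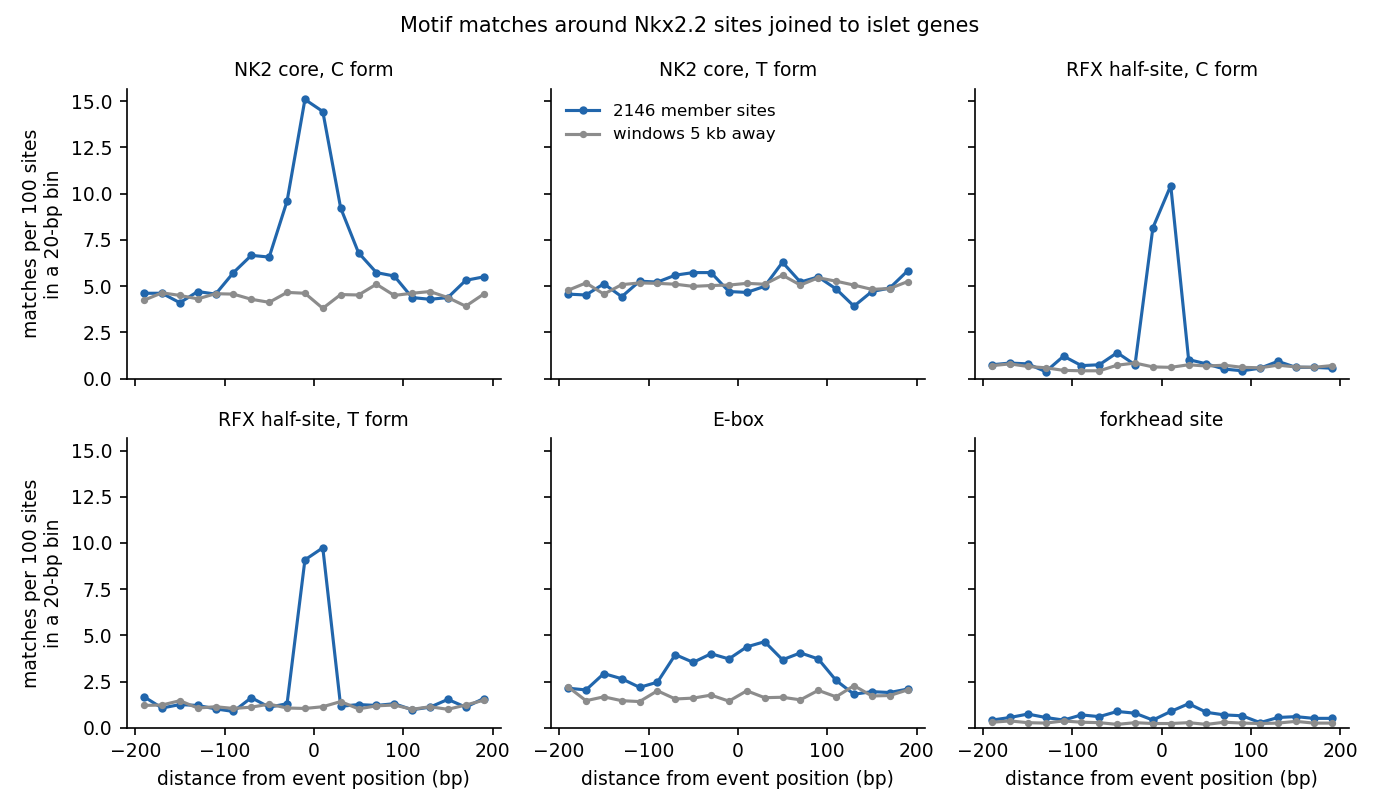
Matches to 6 motifs in 20-bp bins (vertical axis: matches per 100 sites) against the distance from the event position in bp, for the 2146 member sites (blue) and for windows 5 kb away (grey). Both RFX half-site forms peak in the 2 bins next to the event position, the C form of the NK2 core peaks more broadly, the E-box is raised over about 100 bp on each side, and the T form of the NK2 core lies near the grey line.

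RFX half-sites also came in pairs. An inverted pair, GTTGC and GCAAC with 3 bases between them, lay within 100 bp in 52 of the 2146 member sites (2.42%) and in 2 of 4292 windows beside them (0.0466%). With 4 bases between the arms the pair was found in 8 member sites, and with 0, 1, 2, 5 or 6 bases in 0, 1, 0, 0 and 1. The pair with 3 bases occurred in 22 of the 412 joined sites above the ceiling (5.34%) and in 74 of the 3915 sites that were not joined (1.89%). By their centre, 550 member sites (25.6%) had CACTC within 20 bp, 341 (15.9%) GTTGCC, 35 both and 1220 (56.9%) neither. Counting GTTGCT, the E-box and the forkhead site as well, 62.0% of the member sites had at least 1 of the 5 motifs within 20 bp, against 15% of the windows.

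ChIP signal chose the upper bound of the members and is given as a description. The mean of the 2 replicates ran from 5.97 to 8.06 log2 CPM with a median of 6.93. The sites just inside the ceiling were joined to Tmprss4, Pofut2 and Ppp1r3b (8.06 each), and those just outside to Fam167a (8.06), Neurl1a (8.06) and Tmem20 (8.07). The weakest members, at 5.97, were joined to 1300010F03Rik and Osbpl9. The replicates correlated at Pearson r = 0.909 across member sites, which share libraries and are not replicates of one another. Their median absolute difference was 0.149 log2 units, and 3.77% of the sites differed by more than 0.5. The median site was supported by 96 reads in replicate 1 and 72 in replicate 2 within 500 bp. Counting error alone at this depth gives an SD of 0.226 for the difference of the replicates, and the observed SD was 0.229.

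Most member sites lay away from promoters. Of the 2146 sites, 14.0% (95% Wilson interval 12.6 to 15.51%) were within 1000 bp of a protein-coding start and 25.8% within 5000 bp. The share within 1000 bp was 12.6% (9.76 to 16.2%) for joined sites above the ceiling and 4.39% (3.79 to 5.08%) for the sites that were not joined. By annotation 49.9% of the members fell in introns, 44.4% between genes, 4.24% in untranslated exon parts and 1.54% in coding exons. The median distance to the nearest protein-coding start was 20209.5 bp, against 51154 bp for sites that were not joined. These differences in distance go with the way the join was made. The joined gene was the one with the nearest protein-coding start for 92% of the joined genes, each gene had a single site, and of 867 genes with 2 or more nearest sites the listed site was the strongest in 95.3%. Of the sites not joined, 1732 (44.2%) were nearest to a gene that already had a joined site and 2050 to a gene outside the authors' table of 9971 islet genes.

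**Figure D2:**
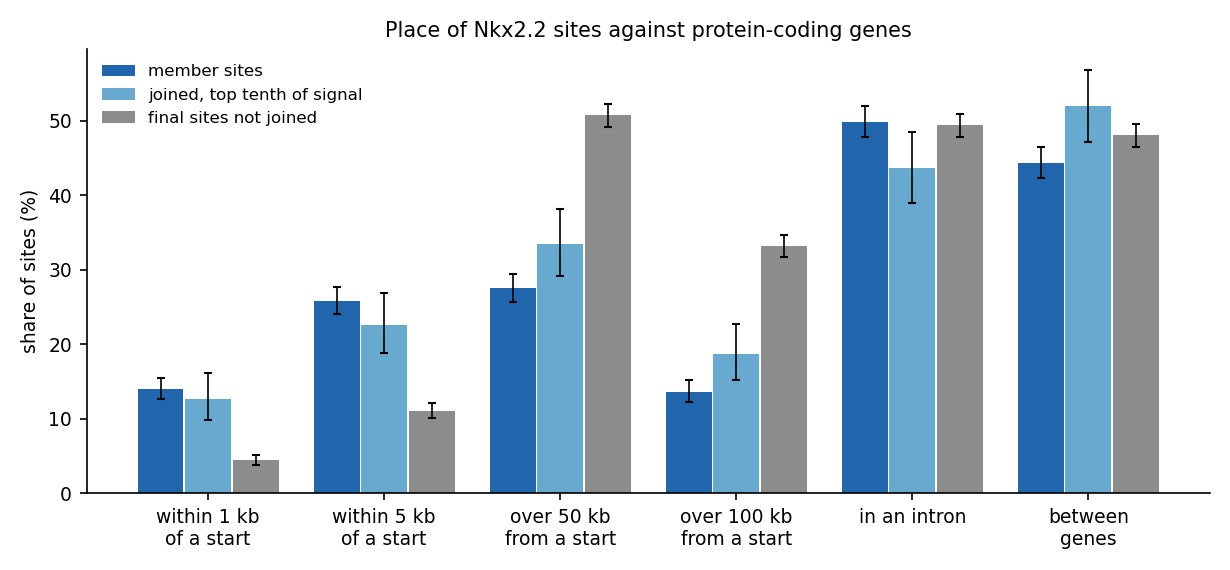
Share of sites (%) in 6 classes of place for member sites, joined sites above the ceiling (the lighter blue bars) and final sites that were not joined; bars start at 0 and error bars are 95% Wilson intervals. Member sites are within 1 kb of a start in 14.0% and unjoined sites in 4.39%.

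Relative to the joined gene itself, the site lay inside the gene body for 43.2% of 2173 gene and site pairs with an annotated gene, upstream for 42.2% and downstream for 14.6%. The median distance to the start of the joined gene was 22441 bp. It was under 50000 bp for 70.8% and over 100000 bp for 15.2%. Of the 2146 member sites 35 were each joined to a pair of genes. The authors' table lists a coordinate in a column named for Nkx6, a homeodomain factor family with a beta-cell member, Nkx6-1. Its source is not given in the sources used here. An Nkx6 coordinate stood beside 739 member sites (34.4%), at a median distance of 72 bp. The share was 25% for sites within 1000 bp of a start and 36.0% for those farther away, and 25.5% for sites with GTTGCC at the centre against 37.4% for sites with neither GTTGCC nor CACTC there.

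Before the islet comparisons, some facts on the libraries. Each of the 9 islet libraries held between 12398041 and 32385406 counts. Defining markers of beta, alpha, delta and PP cells were present in every library, with Ins1 between 50077 and 66688 CPM, and no defining marker of acinar, duct, endothelial, mesenchymal, immune or Schwann cells was at 0 in any library. The summed level of the 29 genes of an acinar list was 11180 to 18249 CPM in 8-week control and 1425 to 14955 CPM in betaSDmut libraries, and 8695 to 15848 CPM in 4-week control and 23035 to 59824 CPM in betaKO libraries. Acinar RNA was therefore higher in both betaKO libraries than in both 4-week controls, and lower in 2 of 3 betaSDmut libraries than in both 8-week controls. The acinar genes Cpa1, Clps and Gp2 among the joined genes passed no test in either comparison, and the part of acinar RNA in the other results was not tested. The 8 genes of a Schwann and neural list summed to 27.6 to 35.1 CPM in 8-week control and 14.6 to 17.8 CPM in betaSDmut libraries. At 4 weeks they summed to 12.0 to 15.4 CPM in control and 24.7 to 29.9 CPM in betaKO libraries. The part of Schwann and neural RNA in the other results was not tested either.

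The share of genes called in the mutant islets was larger among genes joined to member sites than among genes without a site, and the calls went in both directions; no test of that difference in shares was run. In 8-week betaSDmut islets 319 of the 2181 joined genes (14.6%) passed edgeR's quasi-likelihood test at a Benjamini-Hochberg adjusted p of 0.05, of which 174 were higher and 145 lower than in controls. Over all 15413 genes tested 7.94% passed (4.07% higher and 3.87% lower). In 4-week betaKO islets 90 joined genes (4.13%) passed, 48 higher and 42 lower, against 1.56% of all 14942 genes tested (0.810% higher and 0.750% lower). The authors' islet table already leaves out lowly expressed genes, so the closer reference is its genes with no joined site: 7.65% of 7377 passed at 8 weeks and 1.26% of 7374 at 4 weeks. Joined genes were also more highly expressed (median 42.7 against 30.2 CPM in 8-week controls) but close per length (median FPKM 15.6 against 14.6). Their median gene length was 48188 bp against 22637 bp. Within each of 4 classes of gene length the share called at 8 weeks was larger for joined genes than for genes with no site, from 9.74% against 6.40% to 18.5% against 11.1%.

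These counts depend on single libraries. At 8 weeks the number of joined genes called was 618 without betaSDmut replicate 1, 105 without betaSDmut replicate 2, and 17 or 19 without control replicate 1 or 2. At 4 weeks it was 20 without betaKO replicate 2 and 3 without either control replicate. The ratio of the share among joined genes to that among genes without a site was 1.91 at 8 weeks and 3.27 at 4 weeks. It was above 1 under all 13 settings at 8 weeks (1.46 to 4.94) and under 11 of 12 at 4 weeks (0.845 to 10.1), the exception being the fit without 4-week control replicate 2. For each gene list described below, some fit with 1 library left out gave 0 calls at either age, except for the list of other islet hormones and markers, which had 1 call at 8 weeks and 2 at 4 weeks in each such fit.

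The share called was larger for genes with stronger sites at 8 weeks. It was 11.0%, 15% and 17.9% for genes joined to the lower, middle and upper tertile of member signal, and 19.1% (79 of 413) above the ceiling. At 4 weeks the order was not kept, with 3.99%, 2.61% and 5.79% for the tertiles and 6.07% above the ceiling. Across the 2181 genes signal and the size of the log2 fold change were nearly unrelated (Spearman 0.0479 at 8 weeks and 0.0699 at 4 weeks, a description across genes that share libraries). Genes with 1 nearest final site were called in 12.7% at 8 weeks. Those with 2 were called in 19.4% and those with 3 or more in 21.7%. At 4 weeks the shares were 3.77%, 5.66% and 6.16%. The median gene length in these classes, in the same order, was 38353, 72877 and 129970 bp. Over all tested genes with an annotated length, the share called at 8 weeks was 5.71% in the shortest of 4 length classes and 12.0% in the longest. At 4 weeks these shares were 1.05% and 2.59%. No difference between the classes of nearest sites was tested, nor was the part of gene length in it.

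**Figure D3:**
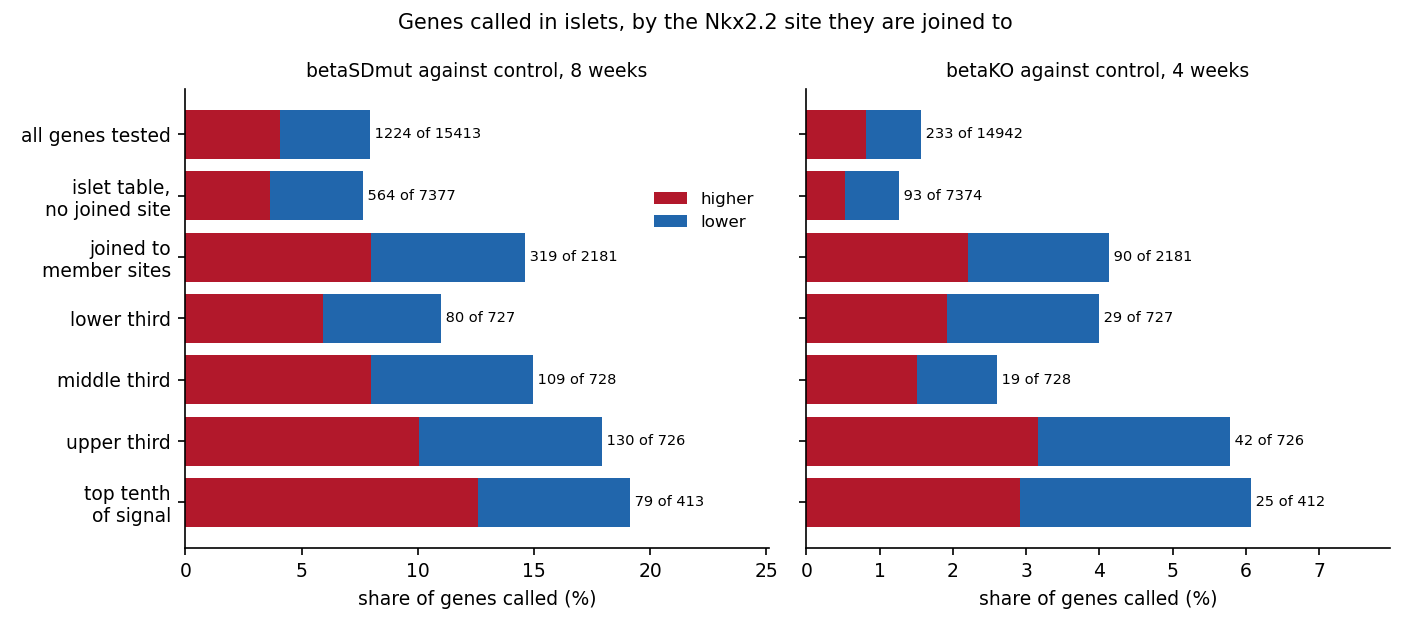
Share of genes called (%) by edgeR's quasi-likelihood test at an adjusted p of 0.05, split into higher (red) and lower (blue), in 8-week betaSDmut islets (left) and 4-week betaKO islets (right, with a different axis range); the numbers are genes called of genes tested. Joined genes reach 14.6% and 4.13%, against 7.65% and 1.26% of islet-table genes with no joined site, and the tertiles split the member genes by ChIP signal.

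The share called also varied with the place of the site. At 8 weeks genes with the site inside the gene were called in 18.4%, with the site upstream in 11.4% and downstream in 12.9%. At 4 weeks the same shares were 4.26%, 3.82% and 4.72%. Median gene length was 83417 bp with the site inside the gene, 34513 bp with it upstream and 20746.5 bp with it downstream. Sites within 1000 bp of the gene's start went with 12.7% called at 8 weeks and 2.47% at 4 weeks, and sites over 50000 bp away with 15.1% and 5.83%. The median length of the genes was 26751 bp for the near sites and 87655 bp for the far ones. Genes whose site had a listed Nkx6 coordinate were called in 16.4% and 5.19%, and those without in 13.7% and 3.57%. Genes with CACTC within 100 bp of the event were called in 14.2% at 8 weeks, and those without it in 15.2%. For RFX half-sites of either form the shares were 13.6% with and 15.4% without, and for the E-box CAGATG 15.9% with and 14.0% without. No difference between these classes was tested, nor was the part of gene length in them.

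Some of the joined genes were called in both mutant islets. Of the 319 called at 8 weeks and the 90 called at 4 weeks, 46 were called in both, which is 14.4% of the first list and 51.1% of the second. Over all 14762 genes tested in both, 119 (0.806%) were called in both, which is 10.4% of all 8-week calls and 51.1% of all 4-week calls. For genes of the authors' islet table with no joined site these overlaps were 8.70% and 52.7%. As a share of the 4-week calls, the overlap among joined genes was thus near that over all genes. Of the 46 genes 23 were higher in both mutants, 19 lower in both and 4 (Th, Cecr6, Pip4k2a and Fat1) moved in opposite directions. The 2 comparisons share no libraries, but age and genotype change together between them. The interaction test, betaSDmut effect minus betaKO effect, was passed by 55 joined genes (2.52%), against 1.21% of all 15995 genes tested.

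**Figure D4:**
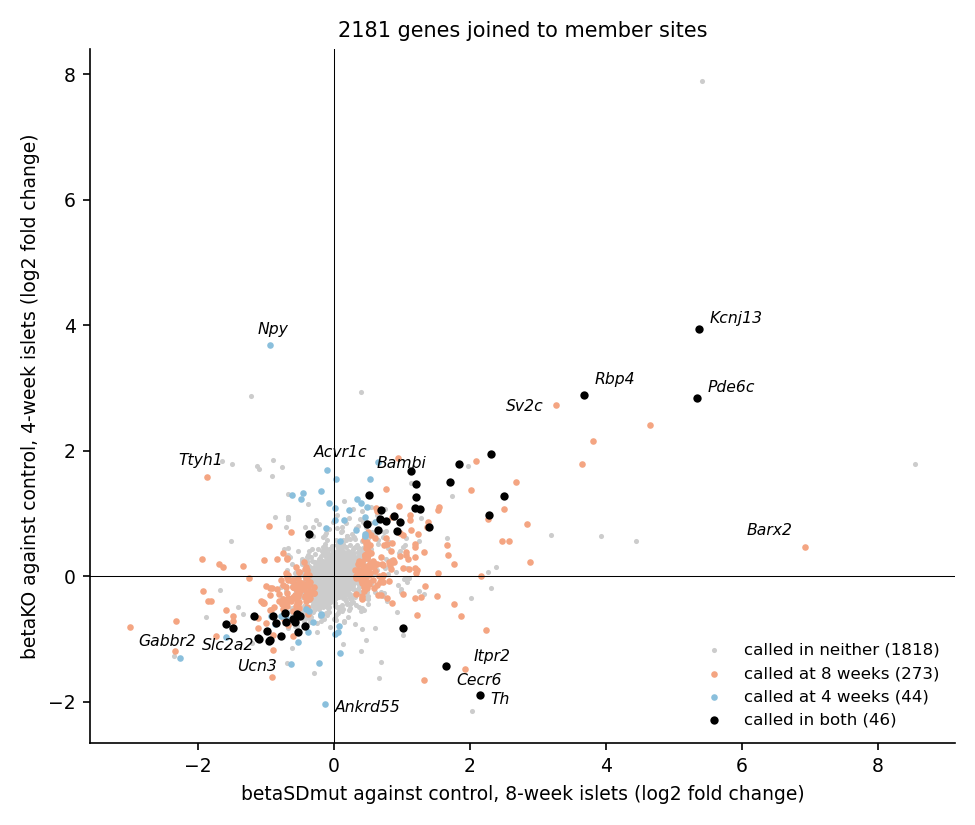
Log2 fold change of each of the 2181 joined genes in 8-week betaSDmut islets (horizontal) and in 4-week betaKO islets (vertical), coloured by the comparison in which it was called. Rbp4, Kcnj13 and Pde6c lie at the upper right, Th and Cecr6 at the lower right, and Npy at the upper left.

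Some of the genes that rose in both mutants were near the limit of detection in control islets and others were not. Rbp4, a plasma retinol carrier, had 128 and 134 CPM in 8-week controls and 1641, 1577 and 1841 in betaSDmut libraries, and 114 and 102 CPM in 4-week controls and 758 and 838 in betaKO libraries. The groups did not overlap at either age, and all mutant libraries were several-fold above all controls. The log2 fold change was 3.68 ± 0.12 (SE; edgeR quasi-likelihood adjusted p = 0.000382) in betaSDmut and 2.89 ± 0.11 (adjusted p = 0.00586) in betaKO islets. Its site lay 12015 bp from the gene's start on the downstream side. The neighbouring gene Pde6c, which encodes the catalytic subunit of the cone photoreceptor phosphodiesterase, was joined to a site in one of its introns, near the ceiling at 8.03 log2 CPM. Pde6c had 0.330 and 0.560 CPM in 8-week controls and 17.8, 18.6 and 19 in betaSDmut libraries, with 0.846 and 0.604 CPM in 4-week controls and 4.44 and 6.26 in betaKO libraries. Its log2 fold changes were 5.34 ± 0.20 and 2.84 ± 0.38 (edgeR adjusted p = 0.000484 and 0.042). The control values rest on 7 and 13 counts at 8 weeks and 28 and 10 at 4 weeks.

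Kcnj13, an inward-rectifier potassium channel, had a site 814 bp from its start with both a T-form RFX half-site and CACTC within 20 bp of the event. It was measured at 0.519 and 0.345 CPM in 8-week controls and at 19.4, 17.7 and 16.8 in betaSDmut libraries. In 4-week controls it was at 0.393 and 0.423 CPM and in betaKO libraries at 6.78 and 5.78. Kcnj13 was therefore near the limit of detection in controls and clearly present in every mutant library. The log2 fold changes were 5.37 ± 0.19 and 3.93 ± 0.34 (edgeR adjusted p = 0.000484 and 0.0224). Fam134b, a receptor for autophagy of the endoplasmic reticulum, rose from 15.1 and 16.3 to 75.7, 88.4 and 70.2 CPM at 8 weeks and from 10.8 and 9.61 to 39.1 and 39.8 CPM at 4 weeks. The zinc transporter gene Slc39a11 rose by 1.20 ± 0.09 and 1.08 ± 0.10 log2 units (edgeR adjusted p = 0.004 and 0.0229), and Arg1, arginase 1, by 1.85 ± 0.30 and 1.79 ± 0.11 (adjusted p = 0.0271 and 0.0147). The Arg1 site, 31423 bp upstream, holds 3 CACTC cores in the sequence above, as does the site of Egfr, a gene that fell at 8 weeks.

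Other genes fell in both mutants. Phactr1, a regulator of actin and protein phosphatase 1, had its site 43 bp from the start. It fell from 280 and 298 to 148, 128 and 125 CPM at 8 weeks and from 290 and 270 to 145 and 136 CPM at 4 weeks, with log2 fold changes of -1.11 ± 0.10 and -0.99 ± 0.09 (edgeR adjusted p = 0.00456 and 0.0224). Tle3, a Groucho-type corepressor, had 107 and 101 CPM in 8-week controls against 43.5, 35.8 and 32.5 in betaSDmut libraries, and 93.0 and 95.5 CPM in 4-week controls against 53.4 and 53.2 in betaKO libraries. Its gene had 7 nearest final sites, and its log2 fold changes were -1.49 ± 0.13 and -0.82 ± 0.08 (edgeR adjusted p = 0.00456 and 0.0271). Fhdc1, a formin-related gene whose downstream site carries the inverted RFX pair, fell by 0.95 ± 0.11 and 1.03 ± 0.11 log2 units (adjusted p = 0.00784 and 0.029). Ttc28, a large tetratricopeptide repeat protein, fell by 1.58 ± 0.09 and 0.76 ± 0.08 (adjusted p = 0.00146 and 0.0314), and this is a called difference between the mutants (-0.82 ± 0.13, adjusted p = 0.0271).

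Among 10 joined genes of a beta-cell identity and glucose sensing list, 2 fell and none rose at 8 weeks, and 3 fell and none rose at 4 weeks. Of all 24 genes of the list, joined or not, 6 fell and none rose at each age. With 1 library left out, 0 to 6 of the 10 were called at 8 weeks (6, all lower, without betaSDmut replicate 1) and 0 to 2 at 4 weeks. DESeq2 called 3 lower at 8 weeks and 7 at 4 weeks. Slc30a8, the zinc transporter of insulin granules, had 1113 and 1226 CPM in 8-week controls and 625, 477 and 514 in betaSDmut libraries. It had 1003 and 1140 CPM in 4-week controls and 708 and 644 in betaKO libraries. The groups were apart at both ages, and the test was passed at 8 weeks (-1.12 ± 0.14, edgeR adjusted p = 0.00953) but not at 4 weeks (-0.66 ± 0.11, adjusted p = 0.061). Slc2a2, the glucose transporter GLUT2, had its E-box-bearing site 15834 bp upstream, near the ceiling. It had 923 and 932 CPM in 8-week controls and 549, 526 and 423 in betaSDmut libraries, and 735 and 1030 CPM in 4-week controls and 357 and 420 in betaKO libraries. The changes were -0.89 ± 0.13 (adjusted p = 0.0163) and -1.18 ± 0.19 (adjusted p = 0.0671). For neither gene did the effects of the 2 mutants differ by test (edgeR adjusted p = 0.358 and 0.67).

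The 3 identity genes called at 4 weeks were Ucn3, Sytl4 and Gjd2. Ucn3, a peptide of mature beta cells, had 542 and 560 CPM in 4-week controls and 220 and 196 in betaKO libraries (-1.41 ± 0.10, edgeR adjusted p = 0.0173). At 8 weeks it had 449 and 452 CPM in controls and 464, 221 and 191 in betaSDmut libraries, so that betaSDmut replicate 1 lay above both controls and the other 2 far below. Sytl4 (granuphilin), which docks insulin granules, differed in the same library: 543 and 533 CPM in 8-week controls against 415, 246 and 224 (-0.87 ± 0.28, adjusted p = 0.124), with -0.76 ± 0.10 (adjusted p = 0.0372) at 4 weeks. Gjd2, which encodes the beta-cell gap junction protein connexin 36, changed by -0.79 ± 0.12 at 4 weeks (adjusted p = 0.0494) and by 0.08 ± 0.10 at 8 weeks (adjusted p = 0.644). The difference between the mutants missed the threshold (0.88 ± 0.17, adjusted p = 0.0528). Ins1, G6pc2, Ffar1 and Ero1lb were not called in either comparison. The median log2 fold change of the 10 genes was -0.37 at 8 weeks and -0.71 at 4 weeks, against 0.01 and 0.00 over all genes tested. For the whole list of 24 genes it was -0.47 and -0.51.

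**Figure D5:**
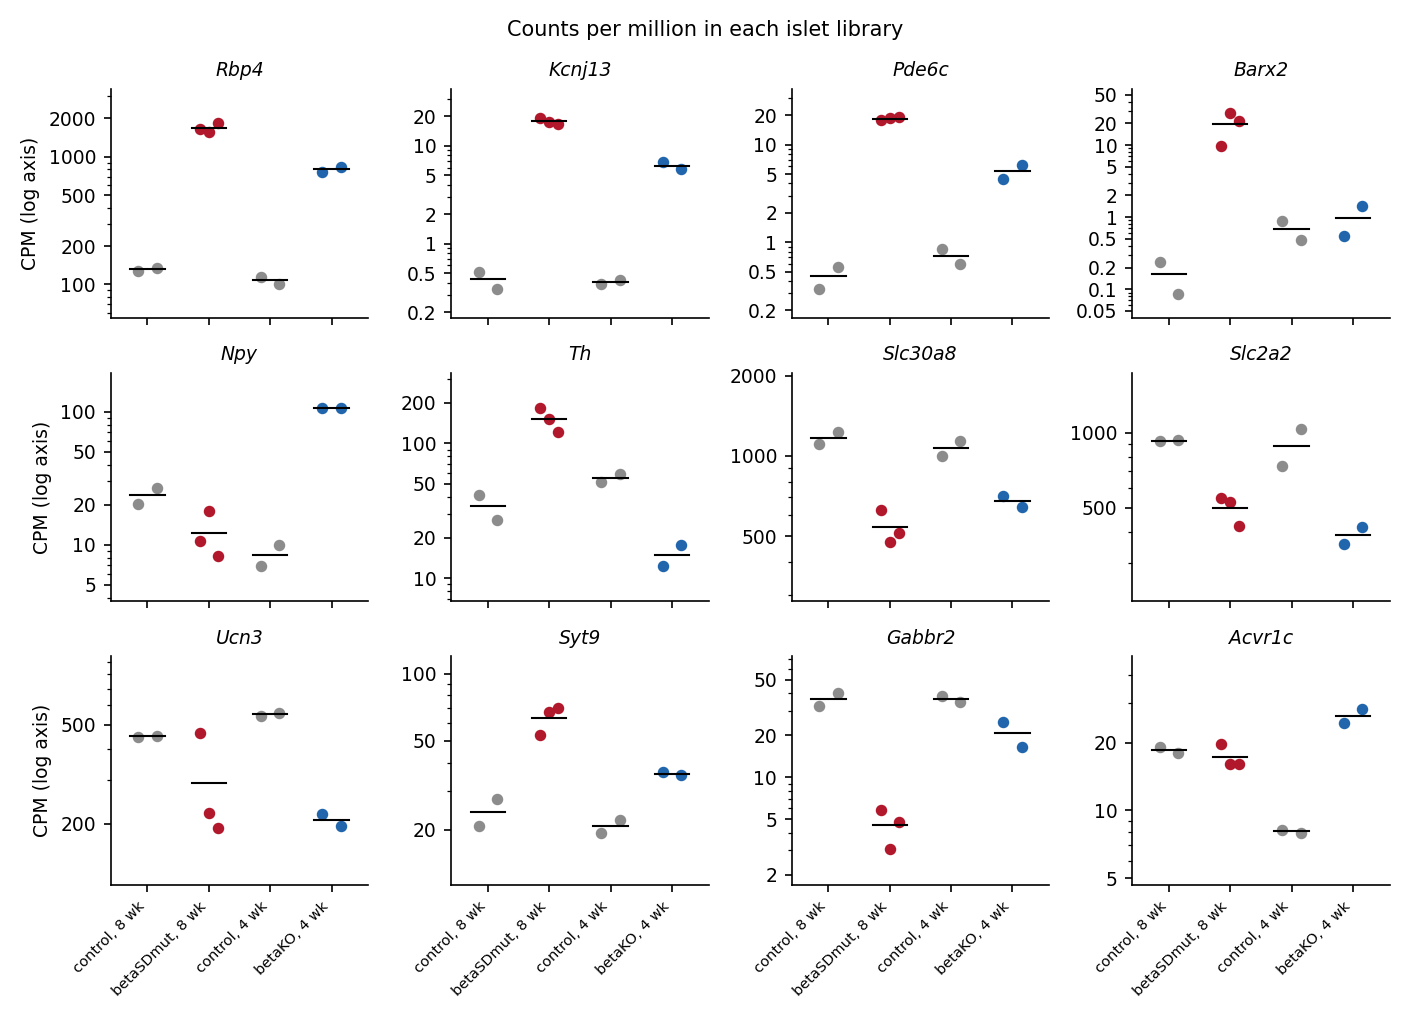
CPM on a log axis in each islet library for 12 joined genes; points are libraries (grey controls, red betaSDmut, blue betaKO) and lines are group means. Rbp4, Kcnj13, Pde6c and Syt9 are above controls in all 5 mutant libraries, Slc30a8 and Slc2a2 are below in all 5, Ucn3 is below controls in 2 of the 3 betaSDmut libraries and both betaKO libraries, and Npy and Th move in opposite ways.

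Of 14 joined islet transcription factor genes, 2 were higher and 2 lower in betaSDmut islets and none was called in betaKO islets by edgeR, where 6 were higher at an unadjusted p under 0.05 and 4 by DESeq2. Over the 31 tested genes of the whole list, edgeR called 3 higher and 4 lower at 8 weeks and none at 4 weeks. Isl1, which acts in all islet endocrine cell types, had 105 and 104 CPM in 8-week controls and 224, 196 and 196 in betaSDmut libraries (0.98 ± 0.09, edgeR adjusted p = 0.00504). At 4 weeks it had 110 and 116 CPM in controls and 208 and 155 in betaKO libraries (0.68 ± 0.15, adjusted p = 0.124). Isl1 was higher in every mutant library than in every control of the same age. St18, a zinc-finger factor, fell at 8 weeks by 0.68 ± 0.08 (adjusted p = 0.00789), and Insm1, a repressor needed for endocrine differentiation, by 0.50 ± 0.08 (adjusted p = 0.0206). The Insm1 site lay 144462 bp from its start and the gene had 8 nearest final sites. Nkx2-2 is itself a joined gene, with a site 61694 bp upstream. Its gene-level counts gave 102 and 88.1 CPM in 8-week controls, 103, 83.0 and 80.8 in betaSDmut, 104 and 77.2 in 4-week controls and 94.1 and 65.5 in betaKO libraries. These levels overlapped at both ages (-0.10 ± 0.13 and -0.18 ± 0.24; adjusted p = 0.68 and 0.779). The labels do not say what the betaKO allele lacks, and a count over the whole gene does not resolve a change within it, so these values do not check the genotypes.

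Among 6 joined genes of other islet hormones and markers, Rbp4 was the 1 called at 8 weeks, and Rbp4, Npy and Ttr were called at 4 weeks, all higher. In the whole list 1 of 16 tested genes was higher at 8 weeks and 6 of 14 at 4 weeks, and none was lower. Npy, a neuropeptide of immature and non-beta endocrine cells, had 6.89 and 9.91 CPM in 4-week controls and 107 CPM in each betaKO library (3.69 ± 0.19, edgeR adjusted p = 0.0147). At 8 weeks it had 20.2 and 26.7 CPM in controls and 10.6, 18.0 and 8.15 in betaSDmut libraries, all below both controls, without passing the test (-0.94 ± 0.34, adjusted p = 0.163). The 2 effects differed by test (-4.62 ± 0.49, adjusted p = 0.0113). Ttr, transthyretin, changed by 0.76 ± 0.11 at 4 weeks (adjusted p = 0.0468) and by -0.11 ± 0.23 at 8 weeks (adjusted p = 0.804).

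Of 7 joined genes of granins and prohormone processing, 3 were higher and none lower at 8 weeks, and 1 was higher and none lower at 4 weeks. DESeq2 called 3 of them higher and 1 lower at 8 weeks, and 2 higher at 4 weeks. Of all 13 genes of the list, edgeR called 5 higher and 1 lower at 8 weeks, and 1 higher and none lower at 4 weeks. Pam, the peptide amidating enzyme, had 692 and 745 CPM in 8-week controls and 1137, 1488 and 1472 in betaSDmut libraries, and 666 and 644 CPM in 4-week controls and 1158 and 1009 in betaKO libraries. It was above every control in all 5 mutant libraries, with changes of 0.93 ± 0.15 and 0.73 ± 0.11 (edgeR adjusted p = 0.0218 and 0.0468). Vgf, a granin-like peptide precursor with both CACTC and GTTGCC at its site, had 18.4 and 35.2 CPM in 8-week controls and 73.6, 127 and 126 in betaSDmut libraries (2.02 ± 0.39, adjusted p = 0.0442). Scg3, secretogranin III, rose at 8 weeks by 0.50 ± 0.10 (adjusted p = 0.0368). The other joined genes of the list, Pcsk1, Pcsk2, Pcsk1n and Cpe, were not called by edgeR.

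Of 15 joined exocytosis genes, 2 rose and 3 fell at 8 weeks, and 2 rose and 2 fell at 4 weeks. Over the 36 tested genes of the whole list, 4 rose and 5 fell at 8 weeks, and 2 rose and 3 fell at 4 weeks. Syt9, a calcium sensor of granule fusion, rose from 20.8 and 27.4 to 53.3, 67.2 and 70.1 CPM at 8 weeks and from 19.4 and 22.1 to 36.2 and 35.2 CPM at 4 weeks (1.40 ± 0.17 and 0.79 ± 0.12, edgeR adjusted p = 0.0111 and 0.0483). Sv2c, a synaptic vesicle glycoprotein, rose at 8 weeks by 3.27 ± 0.36 (adjusted p = 0.0094) from 2.69 and 4.53 CPM in controls. Cadps and Syt14 fell at 8 weeks by 0.67 ± 0.14 and 0.53 ± 0.12 (adjusted p = 0.0447 and 0.0492). The paralogue Sv2b passed neither comparison but passed the test of the difference (-1.59 ± 0.27, adjusted p = 0.0367). Its levels were 17.6 and 26.3 CPM in 8-week controls against 14.2, 12.5 and 14.6, and 14.7 and 17.2 CPM in 4-week controls against 26.7 and 33.4.

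None of 5 joined potassium and calcium channel genes of a fixed list, 2 beta-cell disallowed genes or 4 genes of the unfolded protein response was called in either comparison by edgeR. At an unadjusted p under 0.05, 3 channel genes and 1 gene of the unfolded protein response were higher at 8 weeks and 1 and 2 at 4 weeks, and DESeq2 called 1 and 1 at 8 weeks and 1 and 2 at 4 weeks. In the whole lists at 8 weeks, edgeR called 2 channel genes higher and 1 lower, and 1 disallowed and 1 unfolded protein response gene higher. At 4 weeks it called 1 unfolded protein response gene higher and no channel or disallowed gene. Of 4 joined genes on a list of dedifferentiation and ectopic markers, Myc and Vim were higher at 8 weeks and none was called at 4 weeks (1 at an unadjusted p under 0.05, 0 by DESeq2). In the whole list 3 of 15 tested genes were higher at 8 weeks and 1 of 13 at 4 weeks, and none was lower. Myc, a growth regulator whose site lay 341676 bp downstream of its start, had 5.24 and 4.22 CPM in 8-week controls and 14.7, 11.4 and 8.51 in betaSDmut libraries (1.28 ± 0.26, edgeR adjusted p = 0.041). Vim, vimentin, had 11.2 and 11.9 CPM against 16.4, 23.4 and 22.2 (0.84 ± 0.17, adjusted p = 0.0411). Vim is also a mesenchymal gene: the 15 endothelial and mesenchymal genes summed to 688 to 739 CPM in 8-week controls and 505 to 645 CPM in betaSDmut libraries.

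Barx2, a homeobox gene, had 0.236 and 0.0862 CPM in controls (5 and 2 counts) and 9.81, 28.1 and 21.8 in betaSDmut libraries, with 239, 694 and 603 counts. Barx2 was thus almost undetected in controls and detected in every betaSDmut library. Its log2 fold change of 6.93 ± 0.79 (edgeR adjusted p = 0.00997) was the largest of the 319, and it was not called at 4 weeks (0.46 ± 0.65, adjusted p = 0.798). Aass, an enzyme of lysine breakdown, had 3.59 and 3.36 CPM in controls and 128, 80.3 and 53.3 in betaSDmut libraries (4.65 ± 0.48, adjusted p = 0.00901). Anks1b and 9430031J16Rik rose by 3.81 ± 0.27 and 3.66 ± 0.54 log2 units (adjusted p = 0.00324 and 0.021). In all, 68 of the 319 called joined genes rose by more than 1 log2 unit and 28 fell by more than 1. The same split is not given here for all genes tested, so it is not read as a trait of the joined genes.

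The 8 largest falls at 8 weeks under the rule for named genes were led by Gabbr2. Gabbr2, a subunit of the GABA-B receptor, had 32.3 and 40.5 CPM in controls and 5.79, 3.07 and 4.78 in betaSDmut libraries (-3.0 ± 0.25, edgeR adjusted p = 0.00497). Cntnap2, a neurexin-family adhesion protein, had 77.5 and 84.3 CPM in controls and 16.3, 18.3 and 13.9 in betaSDmut libraries (-2.33 ± 0.12, adjusted p = 0.00114). Fras1, an extracellular matrix protein, had 49.4 and 53.8 against 9.97, 9.38 and 11.5 CPM (-2.32 ± 0.11, adjusted p = 0.000868). The sites of all 3 lay in introns, at 141663, 244448 and 28808 bp from the start. P2ry1, a purinergic receptor, fell by 1.92 ± 0.11, Egfr, the epidermal growth factor receptor, by 1.81 ± 0.21, and the adhesion receptor gene Lphn3 by 1.85 ± 0.24 (adjusted p = 0.00129, 0.00853 and 0.0139). The adhesion molecule gene Nrcam fell by 1.93 ± 0.31 and the membrane protein gene Ttyh1 by 1.86 ± 0.38 (adjusted p = 0.0254 and 0.046). None of these 8 genes was called in betaKO islets. The difference between the mutants passed the test for Gabbr2 (-2.18 ± 0.38, adjusted p = 0.0446), Fras1 (-1.61 ± 0.29, adjusted p = 0.0468) and Ttyh1 (-3.43 ± 0.57, adjusted p = 0.0428) and not for the other 5.

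At 4 weeks 29 of the 90 called joined genes rose by more than 1 log2 unit and 11 fell by more than 1, again without the same split over all genes tested. Oxtr, the oxytocin receptor, had 30.1 and 37.3 CPM in controls and 101 and 136 in betaKO libraries (1.81 ± 0.19, edgeR adjusted p = 0.0331). Acvr1c (ALK7), a receptor for activins and nodal, had 8.18 and 7.98 CPM in controls and 24.3 and 28.3 in betaKO libraries (1.70 ± 0.14, adjusted p = 0.0224). At 8 weeks Acvr1c overlapped between the groups (19 and 18.1 against 19.7, 16.1 and 16.0 CPM), and the effects differed by test (-1.80 ± 0.18, adjusted p = 0.00794). Bambi, a pseudoreceptor that dampens TGF-beta signalling, rose by 1.55 ± 0.11 (adjusted p = 0.0173), and Gpr155 by 1.67 ± 0.22 (adjusted p = 0.0483). The largest fall was that of Ankrd55, from 12.1 and 14.3 to 3.78 and 2.61 CPM (-2.03 ± 0.24, adjusted p = 0.0344). Msh5, Dlgap1, Rasd1 and Fbxl2 fell, with log2 fold changes of -1.38 ± 0.19, -1.31 ± 0.15, -1.22 ± 0.13 and -1.05 ± 0.16 (adjusted p = 0.0443, 0.0331, 0.0289 and 0.0486).

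A few joined genes moved in opposite directions. Th, tyrosine hydroxylase, the rate-limiting enzyme of catecholamine synthesis, had 41.4 and 27.2 CPM in 8-week controls and 183, 151 and 122 in betaSDmut libraries, but 51.5 and 59.7 CPM in 4-week controls and 12.3 and 17.6 in betaKO libraries. Every betaSDmut library was above its controls and both betaKO libraries below theirs. The changes were 2.15 ± 0.26 (edgeR adjusted p = 0.012) and -1.90 ± 0.20 (adjusted p = 0.0321), and their difference was 4.06 ± 0.38 (adjusted p = 0.00794). The Th site, in an intron 3152 bp from the start, was near the ceiling at 7.93 log2 CPM and holds GTTGCC 9 bp after the event. Cecr6 rose from 6.65 and 7.59 to 17.8, 26.2 and 23.5 CPM at 8 weeks and fell from 10.5 and 10.8 to 3.54 and 4.36 CPM at 4 weeks. Itpr2, a calcium release channel, and Bcl6b, a transcriptional repressor, rose at 8 weeks (1.93 ± 0.29 and 2.25 ± 0.12, adjusted p = 0.0218 and 0.00114), had negative values at 4 weeks that missed the threshold (-1.48 ± 0.25 and -0.85 ± 0.25, adjusted p = 0.064 and 0.205), and passed the test of the difference (3.42 ± 0.43 and 3.11 ± 0.29, adjusted p = 0.0177 and 0.00725).

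The authors' deposited table gives calls of their own for the same genes. It names the control of both mutants CTRL, without an age. The control libraries, method and threshold behind these calls may therefore differ from those used above. In it 312 joined genes were marked higher and 206 lower in betaSDmut islets, or 23.8%, against 15.4% of genes with no joined site. For betaKO islets the authors' deposited table marks 79 higher and 87 lower, or 7.61% against 3.23%.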

How the data were processed

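The members were taken from the authors' final ChIP-seq sites by the rule given above. The members, the gene lists and the tests were chosen with earlier results of these data known. Read counts at events called with GEM (500 bp windows) and log2 CPM values of the final sites were deposited by the authors, per the deposited description; both replicates have the same distribution of log2 CPM. Islet read counts per gene and FPKM values were deposited by the authors without a stated role for each tool; STAR, Cufflinks, DESeq2, edgeR 3.20.9, limma 3.34.9, bedtools 2.17.0 and the build mm10 are named per the submitters' processing notes. The use of strand in counting is not given in the sources used here, so overlapping and antisense genes, and near-identical copies such as Ins1 and Ins2, carry an uncertainty. For the 4-week samples the labelled molecule is genomic DNA, whereas what was deposited for them are counts per gene. The authors' deposited calls came from their own table, with log2 coefficients and p-values that were not used.

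Differential tests used edgeR 4.0.16 under R 4.3.3 (filterByExpr, TMM, robust glmQLFit, glmQLFTest) on the counts, with Benjamini-Hochberg adjustment over all genes tested, a threshold of 0.05, one fit per comparison and an interaction contrast for the difference. Printed CPM are TMM-scaled within an age, and a standard error is the log2 fold change over the square root of its F. Fits and motif search were tested on simulated data. Positions used the GENCODE M21 basic annotation of GRCm38, the build of mm10; 2173 of 2181 joined genes matched it by name. Motif shares used windows of 201 bp on either strand; promoter windows came from RefSeq's GRCm38 table. Wilson intervals (95%) and ChIP counts cover counting error only. Named genes, 59 in all, were those of the lists with an adjusted p under 0.05 in any test (up to 6 per list), per islet comparison the 8 largest rises and 8 largest falls among called genes whose groups do not overlap and whose mean log2 CPM is 2 or more (4 and 4 for the difference), up to 4 per direction called in both comparisons, and Nkx2-2. Part of the rule, the genes with most member sites, was void because each gene has 1 joined site; some genes that the rule names are not reported here; Pip4k2a and Fat1 lie outside the rule and were named after their values were seen. Alternatives were DESeq2 1.42.0, other scaling, filter and fit, all 9 islet libraries, a replicate block, each library left out, other ceilings and windows.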

Additional observations from a re-analysis of the deposited data

Results flagged for a closer look

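The effects of the 2 mutations were compared by the interaction test of edgeR's quasi-likelihood fit, and 55 joined genes passed at an adjusted p of 0.05 (164 by DESeq2). Each value below is the betaSDmut log2 fold change minus the betaKO log2 fold change, and age changes with genotype between them. Positive differences were found for Barx2 (6.53), Th (4.06), Itpr2 (3.42), Bcl6b (3.11), Cecr6 (3.10), Pde6c (2.53), Pip4k2a (1.84) and Rbp4 (0.80). Rbp4 and Pde6c rose in both mutants, and more so in betaSDmut islets. Negative differences were found for Npy (-4.62), Ttyh1 (-3.43), Gabbr2 (-2.18), Ugt8a (-1.98), Acvr1c (-1.80), Fras1 (-1.61), Sv2b (-1.59), Fat1 (-1.04), Bambi (-1.01) and Ttc28 (-0.82). Pip4k2a, a lipid kinase gene, changed by 1.01 at 8 weeks and -0.82 at 4 weeks (edgeR adjusted p = 0.019 and 0.0486), and Fat1, an atypical cadherin gene, by -0.37 and 0.67 (adjusted p = 0.0354 and 0.0486). Ugt8a, which makes a myelin lipid, passed neither comparison alone (-0.67 ± 0.20 and 1.31 ± 0.23, edgeR adjusted p = 0.1 and 0.0706). The summed level of the Schwann and neural list was likewise lower in betaSDmut and higher in betaKO libraries than in their controls. Its part in these differences was not tested. Of the 16 named genes among these that the rule chose, 6 (Npy, Fras1, Acvr1c, Th, Cecr6 and Bcl6b) were called under every setting that kept all libraries, and none was called under every setting that left out a library.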

How the results depend on the processing

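Of the named genes, all 43 called at 8 weeks, 29 at 4 weeks and 16 for the difference kept their direction under every setting (12, 11 and 15 settings), and 10, 2 and 0 of them were called under all. The 10 are Rbp4, Kcnj13, Pde6c, Anks1b, Cntnap2, Fras1, P2ry1, Fam134b, Bcl6b and Ttc28, and the 2 are Rbp4 and Npy. With every library kept, 30, 10 and 6 were called throughout. All 319 and 90 joined genes called at 8 and 4 weeks had groups that did not overlap. Leaving out 1 library can then hardly reverse a direction, so at each age the kept direction is no support from those settings. The counts moved more. Joined genes (all genes) called at 8 weeks were 528 (2041) by DESeq2 and 17 to 618 (37 to 2765) with 1 library left out. At 4 weeks they were 235 (770) by DESeq2, 139 (428) with all 9 islet libraries, 136 (372) with no filter, 21 (49) with the non-robust fit, 44 (127) with total library size only and 3 to 79 (4 to 478) with 1 library left out. For the difference they were 164 (649) by DESeq2 and 0 to 105 (0 to 343) with 1 library left out. The count of 0, without 8-week control replicate 2, left 289 joined genes at an unadjusted p under 0.05. With all libraries 783, 509 and 408 joined genes (35.9%, 23.3% and 18.7%) were under that value, against 25.7%, 15.2% and 13.7% of all genes tested. Where a group was left with 1 library, that library was assumed to vary like the others. With the replicate number as a block the counts were 206 (757) at 8 weeks, 104 joined genes at 4 weeks and 30 (87) for the difference; deviations of same-numbered libraries correlated at -0.0445 and 0.0420 at 8 weeks and at 0.0757 at 4 weeks, all under 0.1, so the numbers were not taken as pairs. With the 75th percentile as the ceiling 55 of 1640 joined genes (3.35%) were called at 4 weeks. When sites had to lie within 50000 bp of the start, 53 of 1538 (3.45%) were called, against 90 of 2181 (4.13%) for the main set. CACTT was found in 22.3% of member sites within 50 bp and 54.3% within 150 bp, and 25.8% of the sites lay within 5000 bp of a start. The causes were not tested. Slc30a8 and Slc2a2 missed the threshold at 4 weeks although their groups were apart, and the reason was not tested. With 2 libraries a group, levels can also be apart without any change.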

Other observations

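The 35 member sites joined to a pair of genes gave no pair in which both genes were called in either comparison by edgeR at an adjusted p of 0.05. As 14.6% of the joined genes were called at 8 weeks and 4.13% at 4 weeks, 35 pairs are too few for this count to say anything about shared sites. Sites above the ceiling differed from the members in the RFX half-sites at their centre: GTTGCC lay within 20 bp in 29.9% of them (95% Wilson interval 25.6 to 34.4%), against 17.5% (16.0 to 19.2%) of members. The share for CACTC was 28.9% (24.7 to 33.4%) against 27.3% (25.4 to 29.2%). Within the members the GTTGCC share was 14.5%, 18.5% and 19.6% in the lower, middle and upper tertile of signal. Member sites with GTTGCC at the centre held the E-box CAGATG in 19.9% and sites with neither GTTGCC nor CACTC there in 35.2%.

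Kcnj5, a potassium channel gene, and Slc5a10, a sugar transporter gene, have fitted changes beyond those of the called genes in the plot of both comparisons, and were chosen here after their values were seen. Kcnj5 had log2 fold changes of 5.41 and 7.89 (edgeR adjusted p = 0.0675 and 0.0746) and Slc5a10 of 8.56 and 1.78 (adjusted p = 0.0644 and 0.108), and neither was called.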
